A study of Mus musculus with 9 samples.

Results

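The 37 genes described here encode the machinery that moves new secretory proteins into the endoplasmic reticulum (ER), folds them, and removes those that fail to fold, together with the sensors and transcription factors of the unfolded protein response. They were chosen by symbol from a fixed list, and all 37 were found among the 41128 genes of the table and passed the filter on low counts, which 14057 genes passed. RNA-seq was done on lymphomas from 2 groups of mice that all carried the IµBcl6 transgene, which drives BCL6 in B cells, and 1 Cγ1-Cre allele (Cγ1 wt/cre), which acts in B cells once they enter a germinal center. The 3 Bcl6 tumors were Smc3 wt/wt and the 6 Smc3/Bcl6 tumors were Smc3 wt/-, so that the groups differ in 1 copy of the cohesin subunit gene Smc3. Each tumor gave 1 library. The labels name no treatment, and the age of the mice is not given in the sources used here. The labels name the mesenteric lymph node for tumor 1 of each genotype and only the lymph node for the others. The paper gives mesenteric lymph nodes as the source for both genotypes. Tumors are named below by genotype and replicate number, and values in a row of 3 or 6 follow that number.

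Proteins bound for the cell surface or for secretion enter the ER through the Sec61 channel, lose their signal peptide, and are folded with the help of chaperones such as BiP (Hspa5) and of protein disulfide isomerases. Proteins that fail to fold are passed back to the cytosol and degraded. When unfolded proteins build up, the sensors IRE1α (Ern1), PERK (Eif2ak3) and ATF6 (Atf6) start the unfolded protein response, in which the transcription factors XBP1, ATF4 and cleaved ATF6 raise the expression of folding and degradation genes. B cells expand this machinery as they become plasma cells, which secrete large amounts of antibody, and XBP1 is required for that step.

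Some of the 37 genes share a DNA element in their promoters, which is shown here because it marks the part of the list that classical work ties to ATF6 and XBP1. The ER stress response element (ERSE) is CCAAT, 9 bases and CCACG, and ERSE-II is ATTGG, 1 base and CCACG. Both were searched on both strands of RefSeq promoters (GRCm38.p6), which run from 250 bases before to 50 bases after the gene start and were given for 31 of the 37 genes. An ERSE was found in 9 of these 31 (29.0%), namely Calr, Canx, Creld2, Derl3, Dnajc3, Hsp90b1, Hspa5, Pdia6 and Syvn1. Of all 27025 genes with a promoter, 37 had an ERSE (0.137%). An ERSE-II was found in Herpud1 and Dnajb11 (6.45%), against 12 of the 27025 genes (0.0444%). The sites that lie before the RefSeq gene start follow in the direction of the gene with 20 bases on each side. The gene position given below for Hspa5 begins further upstream, so that its site lies inside that position. The paired motif letters are in capitals, and appear as CGTGG and ATTGG where an ERSE lies on the other strand.
Hspa5, chr2:34772005-34772063, plus strand: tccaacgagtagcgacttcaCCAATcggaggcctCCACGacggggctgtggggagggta
Calr, chr8:84847055-84847113, minus strand: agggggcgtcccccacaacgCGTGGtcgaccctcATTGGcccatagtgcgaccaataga
Herpud1, chr8:94386357-94386407, plus strand: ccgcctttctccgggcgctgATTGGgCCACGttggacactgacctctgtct
Derl3, chr10:75893222-75893280, plus strand: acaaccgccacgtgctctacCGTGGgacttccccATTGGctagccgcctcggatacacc
Hsp90b1 far site, chr10:86705618-86705676, minus strand: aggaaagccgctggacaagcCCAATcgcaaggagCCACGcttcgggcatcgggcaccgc
Hsp90b1 near site, chr10:86705513-86705571, minus strand: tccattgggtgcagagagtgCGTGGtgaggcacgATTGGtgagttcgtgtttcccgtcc
Canx, chr11:50325780-50325838, minus strand: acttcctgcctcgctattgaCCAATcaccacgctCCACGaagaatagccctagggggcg
Pdia6, chr12:17266471-17266529, plus strand: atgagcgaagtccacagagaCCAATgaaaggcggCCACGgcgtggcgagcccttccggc
Dnajc3, chr14:118937807-118937865, plus strand: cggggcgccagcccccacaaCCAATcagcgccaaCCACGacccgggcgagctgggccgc
Creld2, chr15:88819500-88819558, plus strand: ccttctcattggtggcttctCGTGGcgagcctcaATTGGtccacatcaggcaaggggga
Syvn1, chr19:6046512-6046570, plus strand: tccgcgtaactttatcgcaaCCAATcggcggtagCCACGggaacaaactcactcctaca
The near site of Hsp90b1 and the sites of Calr, Creld2 and Derl3 lie on the other strand. Of the sites shown, that of Syvn1 was closest to the gene start, 44 to 26 bases before it, while the ERSE-II of Dnajb11 lies 7 to 17 bases after it, and the far site of Hsp90b1 was 212 to 194 bases before it. TGACGTGG, another element bound by XBP1, was found in 0 of the 31 genes and in 193 of all genes with a promoter (0.714%). TGATGNAA, the letters of an element bound by ATF4 with C/EBP factors, was found in Herpud1 only among the 31, and in 4.51% of all genes. CCACG alone was found in 25 of the 31 (80.6%) and in 35.5% of all genes. A match of letters is a description of these windows and was not tested for binding.

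The libraries held 10156728 to 17774577 counts. In Smc3/Bcl6 tumor 2 the counts fell with the exon length of the gene over all tested genes (Spearman correlation -0.465 across genes, -0.143 to 0.199 in the other 8 tumors), so results that rest on it are given with and without it. Levels are in counts per 1000000 library counts (CPM), with library sizes scaled by TMM factors. Smc3 was at 88.1 to 126 CPM in the Bcl6 tumors, at 27.9 CPM in Smc3/Bcl6 tumor 2 and at 89.7 to 111 CPM in the other 5 Smc3/Bcl6 tumors, which lay within the Bcl6 range. The Smc3 level therefore did not separate the labelled genotypes. The labelled tissue was checked by B cell genes, of which Cd79a was at 277 to 1868 CPM, Cd79b at 792 to 2303 CPM and Ms4a1 at 276 to 2518 CPM over the 9 tumors. In these bulk samples, fewer cells of a type and less RNA per cell cannot be told apart.

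The 37 genes differed more between single tumors than between genotypes. Smc3/Bcl6 tumors 1 and 2 stood above the others. In tumor 1 all 37 genes were above the median of the other 8 tumors, by a median of 0.70 on the log2 scale, while the median over all tested genes was 0.026. In tumor 2 the median was 1.12 with 31 of 37 genes above, and the median over all tested genes was -0.088. Smc3/Bcl6 tumors 3 and 4 lay lowest, with medians of -0.41 and -0.39 and with 0 and 7 genes above the median of the other tumors. The Bcl6 tumors had medians of 0.10, -0.10 and 0.075, and Smc3/Bcl6 tumors 5 and 6 had -0.19 and 0.078. The 37 genes took 2.13% of all counts in Smc3/Bcl6 tumor 1 and 1.91% in tumor 2, against 1.01% to 1.58% in the other 7 tumors. The 2 high tumors were not alike. Tumor 2 was the highest tumor for 22 genes and the lowest for 4, which were Canx, Atf6, Ern1 and Eif2ak3. Tumor 1 was the highest for 12 genes and the lowest for none, and among the 8 tumors without tumor 2 it was the highest for 31 of 37.

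**Figure D1:**
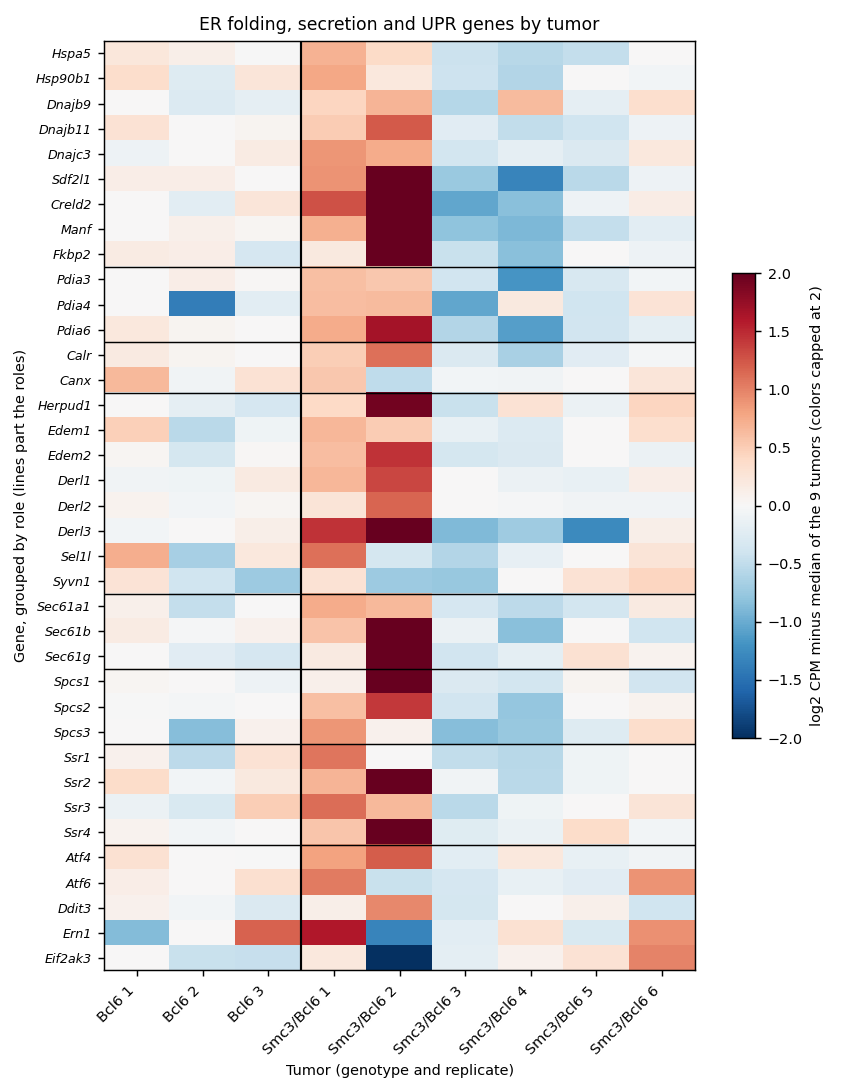
Log2 CPM of each of the 37 genes (vertical axis, grouped by role) in each of the 9 tumors (horizontal axis) minus the median of that gene over the 9 tumors, with colors capped at 2. Smc3/Bcl6 tumor 1 is red in nearly every gene, while Smc3/Bcl6 tumor 2 is dark red in many and blue in Canx, Atf6, Ern1 and Eif2ak3.

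**Figure D2:**
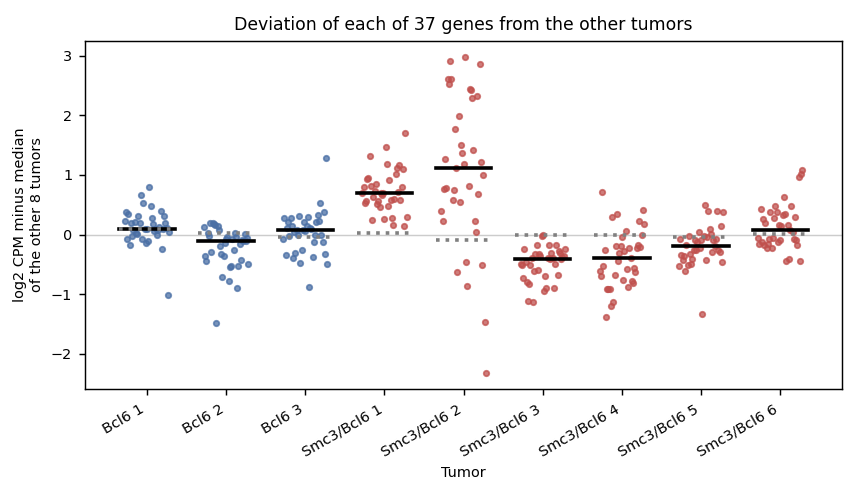
Each point is 1 of the 37 genes in 1 tumor, as log2 CPM minus the median of the other 8 tumors. Solid lines mark the median of the 37 genes and dotted lines that of all tested genes, and the solid line is at 0.70 in Smc3/Bcl6 tumor 1 and at 1.12 in Smc3/Bcl6 tumor 2.

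Smc3/Bcl6 tumors 1 and 2 also stood highest after log2 CPM was corrected for exon length and GC content in each tumor. The median of the 37 genes was then 0.63 in Smc3/Bcl6 tumor 1 with 37 genes above the median of the other 8 tumors, and 1.14 in tumor 2 with 33 genes above it. The markers of other cells lay far apart in tumors 1 and 2. The T cell genes summed to 126 CPM and the macrophage genes to 269 CPM in Smc3/Bcl6 tumor 1, the lowest of the 9 tumors for both (8 of 8 genes of each list found). In tumor 2 the T cell genes summed to 2840 CPM, the highest of the 9 tumors, and the macrophage genes to 7503 CPM. In the other 7 tumors the T cell genes ranged from 275 to 2783 CPM and the macrophage genes from 437 to 8354 CPM. Marker sums were not corrected for exon length, with which the counts of tumor 2 fell. The T cell genes did not move together in tumor 2. Cd2, Cd3d and Cd3g were the highest of the 9 tumors there and the other T cell genes were not. Cd4 was at 15.8 CPM in tumor 2 and at 164 CPM in Smc3/Bcl6 tumor 3. The 10 plasma cell genes, of which Tnfrsf17 was at 0 in at least 1 tumor, summed to 5626 CPM in tumor 1, 5798 CPM in tumor 2 and 1297 to 4681 CPM in the other 7. The genes of the plasma cell list did not move together either. Igj gave 2924 CPM of the sum in tumor 1 and Mzb1 3381 CPM of the sum in tumor 2, while Prdm1 was at 31.2 CPM in tumor 2, the lowest of the 9 tumors, and Sdc1 at 20.4 CPM in tumor 1, below 4 of the other tumors. The part of these cells in the level of the 37 genes was not tested.

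The chaperones and co-chaperones of the ER differed in how far they spread over the Smc3/Bcl6 tumors, and in none of the 9 did the genotypes separate. BiP (Hspa5, chr2:34771970-34777547, + strand of GRCm38), the main Hsp70 chaperone of the ER, was at 1987, 1849 and 1691 CPM in the Bcl6 tumors. It was at 2743, 2229.6, 1260.5, 1164, 1229 and 1701 CPM in the Smc3/Bcl6 tumors. Smc3/Bcl6 tumors 1 and 2 lay above all 3 Bcl6 tumors and tumors 3, 4 and 5 below them, so that the fitted log2 fold change was -0.10 ± 0.35 (SE) and the groups overlapped. GRP94 (Hsp90b1), which folds a narrower set of clients including Toll-like receptors and integrins, ranged from 787 to 2018 CPM in Smc3/Bcl6 and from 993 to 1514 CPM in Bcl6 tumors, with a log2 fold change of -0.084 ± 0.34. Up to 15.7% of its exon bases overlap other genes, and whether counting used the strand is not given in the sources used here.

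Creld2 (chr15:88819646-88826683, + strand), a secreted ER stress protein with disulfide isomerase activity, varied far more. It was at 321, 278 and 378 CPM in the Bcl6 tumors and at 776, 1792, 157, 180.5, 300.3 and 357 CPM in the Smc3/Bcl6 tumors. Tumors 1 and 2 were the 2 highest of all 9 tumors and tumors 3 and 4 the 2 lowest. Manf, a small ER protein that binds BiP and can be secreted, was at 171, 183 and 177 CPM in Bcl6 and at 279, 1196, 98.1, 92.0, 123 and 148 CPM in the other genotype. The log2 fold change of Manf was 0.87 ± 0.85 and became -0.25 ± 0.35 without tumor 2, whose level was 4.28 times that of the next highest tumor. Sdf2l1, a partner of the ER DnaJ proteins, spanned 86.9 to 1271 CPM in Smc3/Bcl6 against 217 to 238 CPM in Bcl6 tumors, and its log2 fold change turned from 0.69 ± 0.80 to -0.24 ± 0.44 in the same way. Fkbp2, a prolyl isomerase of the ER, was at 336 CPM in tumor 2 and at 31.5 to 64.9 CPM in the other 8 tumors.

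The DnaJ co-chaperones of BiP varied less. Dnajb9 (ERdj4), which returns BiP to IRE1α and so restrains it, was at 28.3, 23.3 and 25.05 CPM in Bcl6 tumors. In Smc3/Bcl6 tumors it was at 38.3, 45.4, 19.1, 43.9, 25.03 and 35.8 CPM. Its 4 highest tumors were all Smc3/Bcl6 (1, 2, 4 and 6) and its lowest was Smc3/Bcl6 tumor 3, with a log2 fold change of 0.44 ± 0.31 in all 9 tumors and 0.35 ± 0.27 without tumor 2. Dnajb11 (ERdj3) and Dnajc3 (p58IPK) had log2 fold changes of 0.10 ± 0.40 and 0.23 ± 0.34, and for both the 2 highest tumors were Smc3/Bcl6 tumors 1 and 2.

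Of the protein disulfide isomerases, which form and reshuffle disulfide bonds, Pdia3 was at 1312, 1433 and 1329 CPM in Bcl6 and at 1994, 1912, 1002, 577, 1056 and 1261 CPM in Smc3/Bcl6 tumors. The 3 Bcl6 values lay close together inside the Smc3/Bcl6 range, and the log2 fold change was -0.063 ± 0.39. Pdia4 was the exception in that its low value in the Bcl6 group lay outside the other 2, at 845, 325 and 730.0 CPM, against 1300.3, 1314, 412, 966, 644 and 1020.5 CPM in Smc3/Bcl6. The log2 fold change of Pdia4 was 0.57 ± 0.44 with all 9 tumors and 0.47 ± 0.43 without tumor 2. Pdia6, which also tunes the IRE1α and PERK signals, ranged from 322 to 2186 CPM in Smc3/Bcl6 and from 690 to 796 CPM in Bcl6 tumors, with a log2 fold change of 0.26 ± 0.57 that became -0.24 ± 0.37 without tumor 2. The lectin chaperones calreticulin (Calr) and calnexin (Canx) bind the sugar chains of glycoproteins during folding. Calr was at 1404, 2134, 813, 637, 851 and 973 CPM in Smc3/Bcl6 tumors, highest in tumor 2, whereas Canx was at 938, 457, 627, 618, 649 and 769.7 CPM, lowest in tumor 2. Their Bcl6 values were 996 to 1123 CPM and 617 to 1017 CPM, and their log2 fold changes were 0.11 ± 0.39 and -0.26 ± 0.29.

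Among the genes of ER-associated degradation, Derl3, a membrane protein of the retrotranslocation machinery that is found mainly in secretory cells, had the largest log2 fold change of the 37 genes. Derl3 (chr10:75893413-75895941, + strand) was at 93.6, 97.0 and 105 CPM in the Bcl6 tumors and at 264, 755, 52.4, 59.4, 39.9 and 105 CPM in the Smc3/Bcl6 tumors. Tumors 1 and 2 were above all Bcl6 tumors, tumor 6 was level with the highest of them, and tumors 3, 4 and 5 were below all of them. The log2 fold change was 1.11 ± 0.93 with all 9 tumors and 0.081 ± 0.59 without tumor 2. Herpud1, which sits in the ubiquitin ligase complex of the ER and is a target of PERK and ATF6, was at 309, 272 and 245 CPM in Bcl6 tumors. It was at 406, 1174, 226, 376, 284 and 414 CPM in Smc3/Bcl6 tumors, where tumors 1, 2, 4 and 6 were above all Bcl6 tumors. Herpud1 had a log2 fold change of 0.80 ± 0.51 that did not pass the call thresholds described with the genotype comparison, and 0.32 ± 0.22 without tumor 2.

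The other degradation genes had smaller fold changes. Edem1 and Edem2, which mark misfolded glycoproteins by trimming mannose, had log2 fold changes of 0.21 ± 0.32 and 0.46 ± 0.43, and Derl1 and Derl2 of 0.41 ± 0.37 and 0.26 ± 0.32. Derl2 was the flattest of the list outside tumor 2, at 103 to 130 CPM in 8 tumors and at 244 CPM in tumor 2. Sel1l and Syvn1 (Hrd1) form the ubiquitin ligase that discards misfolded proteins, and in uncorrected CPM they did not follow the others in tumor 2. Sel1l was at 638, 245 and 450.3 CPM in Bcl6 and 832, 302, 259, 347, 388 and 463 CPM in Smc3/Bcl6 tumors, and Syvn1 at 446, 279 and 221 and 448, 222, 218, 368, 451 and 496 CPM. The 2 genes had log2 fold changes of -0.041 ± 0.43 and 0.22 ± 0.36, and neither had tumor 2 among its 3 highest. Corrected for exon length and GC content, tumor 2 deviated from the median of the other 8 tumors by 0.45 for Sel1l and -0.58 for Syvn1.

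The translocation genes carry proteins into the ER. Sec61a1, the pore subunit, was at 546, 366 and 506 CPM in Bcl6 and at 848, 791, 399, 352, 392 and 572 CPM in Smc3/Bcl6 tumors. Tumors 1 and 2 were the 2 highest of 9, and the log2 fold change was 0.24 ± 0.36. The small subunits Sec61b and Sec61g stood out in tumor 2, at 310 CPM against 32.1 to 85.3 CPM and at 23.6 CPM against 3.50 to 5.69 CPM in the other 8 tumors. Both have near-identical copies elsewhere in the genome (3 other genes for Sec61b, over most of the transcript, and 4 for Sec61g), so their levels are uncertain. Signal peptidase, which removes the signal peptide, showed the same contrast, since Spcs1 was at 603 CPM in tumor 2 against 97.7 to 137 CPM elsewhere, while Spcs3 peaked in tumor 1 at 1025 CPM and was at 1025, 589.9, 305, 326, 463 and 708 CPM over the Smc3/Bcl6 tumors. Spcs2 was almost constant in the Bcl6 tumors, at 365, 357 and 365 CPM, and spanned 213 to 973 CPM in the Smc3/Bcl6 tumors. In the translocon-associated protein complex, Ssr2 and Ssr4 peaked in tumor 2 at 645 and 1027 CPM, and Ssr1 and Ssr3 peaked in tumor 1 at 555 and 430.4 CPM. Ssr4 had a log2 fold change of 1.07 ± 0.73 in all 9 tumors and 0.14 ± 0.21 without tumor 2. For Spcs1 and Ssr2, 16.3% and 12.8% of the exon bases overlap a gene on the opposite strand.

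In uncorrected CPM the 3 sensors of the unfolded protein response were at their lowest in Smc3/Bcl6 tumor 2. Most folding genes were at their highest there. Corrected for exon length and GC content, Ern1 and Eif2ak3 deviated by -0.67 and -1.81 from the median of the other 8 tumors. Atf6 was then above that median, by 0.51 (log2 scale). PERK (Eif2ak3, chr6:70844515-70905245, + strand), the kinase that slows translation under ER stress, was at 48.9, 35.7 and 35.6 CPM in the Bcl6 tumors and at 56.3, 9.95, 42.8, 52.0, 59.5 and 97.4 CPM in the Smc3/Bcl6 tumors. The 4 highest tumors were Smc3/Bcl6 tumors 1, 4, 5 and 6, and tumor 2 was the lowest of 9. The log2 fold change was 0.40 ± 0.53 with all 9 tumors and 0.64 ± 0.27 without tumor 2. IRE1α (Ern1), the kinase and RNase that splices Xbp1 mRNA, was at 9.88, 18.1 and 41.1 CPM in Bcl6 and 55.4, 7.20, 15.7, 22.4, 14.7 and 34.1 CPM in Smc3/Bcl6 tumors. It was the most variable gene of the list within the Bcl6 group, with a log2 SD of 1.02 against a median of 0.17 over the 37 genes. ATF6 (Atf6), the sensor that is cut in the Golgi to give a transcription factor, was at 395, 141, 152, 174, 164 and 359 CPM in Smc3/Bcl6 tumors, highest in tumors 1 and 6 and lowest in tumor 2, against 193 to 239.6 CPM in Bcl6 tumors. Gene counts do not show splicing of Xbp1 or cutting of ATF6, so the activity of these sensors was not measured. Downstream of PERK, Atf4 was at 157, 126 and 125 CPM in Bcl6 and 219, 293, 109, 147, 114 and 120.0 CPM in Smc3/Bcl6 tumors, and its target CHOP (Ddit3), which promotes apoptosis, ranged from 20.9 to 54.0 CPM over all 9 tumors. Atf4 and Ddit3 were highest in tumor 2 and had log2 fold changes of 0.30 ± 0.36 and 0.23 ± 0.33.

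Per kilobase of exon, mean levels over the 9 tumors ran from 420.4 CPM per kilobase for Pdia3 and 417 for Hspa5 through 385 for Calr and 369 for Creld2 down to 8.08 for Eif2ak3, 2.97 for Ern1 and 2.65 for Sec61g. The first 4 were separated by less than their spread over tumors, since Creld2 alone spanned 157 to 1792 CPM. Within the Bcl6 group the 37 genes had a median log2 SD of 0.17, against 0.35 over all tested genes. In the Smc3/Bcl6 group the medians were 0.66 and 0.71, and without tumor 2 they were 0.52 and 0.44. The 37 genes and all tested genes were not matched for expression level, so these medians do not show a trait of the 37 genes.

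Genotypes were compared to learn whether loss of 1 Smc3 copy shifts this machinery, with a gene called when its unadjusted p was below 0.1 and its log2 fold change was above 0.56 or below -0.56 (edgeR quasi-likelihood test). None of the 37 genes was called, with 0 higher and 0 lower in Smc3/Bcl6, against 1.28% of all tested genes higher and 0.868% lower. At an unadjusted p below 0.05 there were 0 of 37 genes, against a background of 0.562%. With Benjamini-Hochberg adjustment over all genes, 0 of 37 genes passed 0.05 in edgeR. None passed in limma or in DESeq2, which gave no p for 4 of them. The background was 0%. In simulated data for this comparison, 0% of genes with a log2 change of 1 were recovered after adjustment, and 25% of those with 2. The absence of genes passing after adjustment therefore decides little about changes of that size. No gene of the 37 had log2 CPM values that did not overlap between genotypes, against 0.484% of all tested genes. Log2 fold changes were positive for 32 of 37 genes with a median of 0.27, while 57.4% of all tested genes were positive with a median of 0.061. The largest were those of Derl3, Ssr4 and Sec61g, and the lowest was that of Canx.

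The lean was smaller without 1 library. Without Smc3/Bcl6 tumor 2, 23 of 37 log2 fold changes were positive with a median of 0.081, against 53.2% positive and a median of 0.028 over all genes. Eif2ak3 was then the 1 gene called, higher in Smc3/Bcl6 (unadjusted p = 0.045, adjusted p = 0.985 in edgeR), and 0 were called lower, against a background of 2.43% and 1.39%. It was also the 1 gene with an unadjusted p below 0.05, where the background was 1.82%. With tumors 1, 2 and 3 of both genotypes paired by number (replicate block), 0 of the 37 genes were called higher or lower, against 0.337% and 1.9% of all genes. In this fit 31 were positive and the median was 0.42, while 43.8% of all genes were positive with a median of -0.077. The block keeps Smc3/Bcl6 tumors 1 and 2, with the highest median deviations (0.70 and 1.12). It leaves out tumors 4, 5 and 6 (-0.39, -0.19 and 0.078), so its median is not a separate support for the lean. The median by role fell without tumor 2 in each of the 8 roles, from 0.67 to 0.13 for the Sec61 subunits, from 0.44 to -0.18 for the chaperones, and from 0.231 to 0.220 for the sensors and transcription factors.

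**Figure D3:**
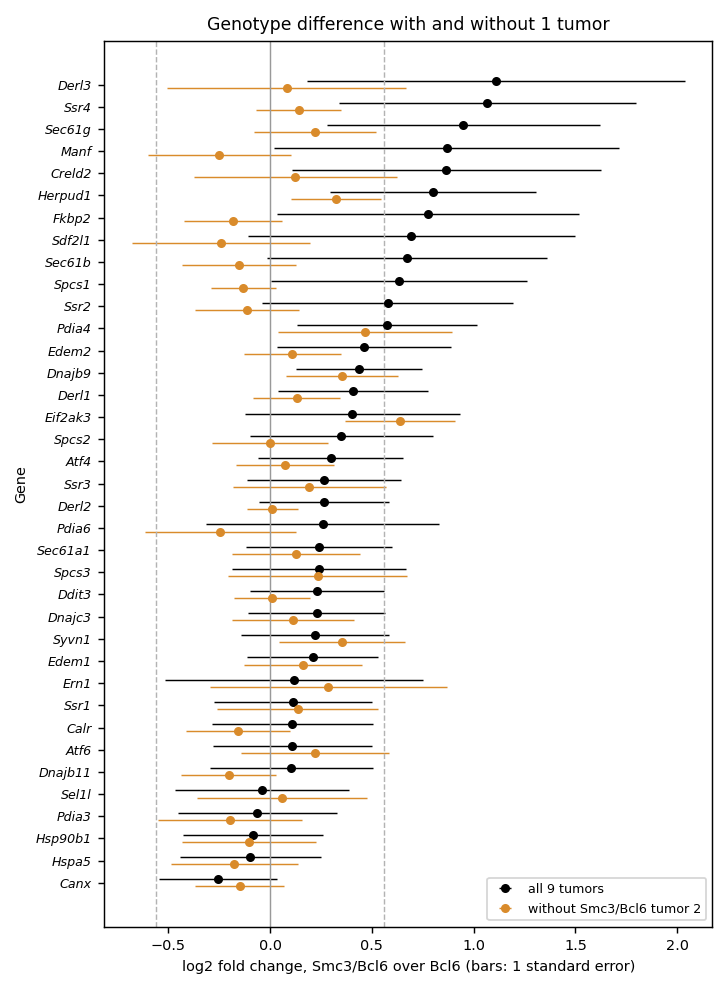
Log2 fold change of Smc3/Bcl6 over Bcl6 (horizontal axis) for each of the 37 genes (vertical axis), with 1 standard error, in all 9 tumors (black) and without Smc3/Bcl6 tumor 2 (orange), and with dashed lines at -0.56 and 0.56. The median moves from 0.27 to 0.081, the bars shorten for Manf, Ssr4 and Spcs1, and Eif2ak3 moves up from 0.40 to 0.64.

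The split of the list in Smc3/Bcl6 tumor 2 followed exon length. Over the 37 genes the deviation of tumor 2 from the other 8 tumors and exon length had a Spearman correlation of -0.724 across genes, which are not independent replicates, and over all tested genes it was -0.465. The 12 shortest genes (1108 to 2464 bases) had a median deviation of 2.38 on the log2 scale, while all tested genes in that length range had 0.92. The 13 of middle length had 1.27 against 0.23, and the 12 longest (4229 to 10431 bases) had -0.21 against -0.59. After correction for length and GC content the medians of the 37 genes in these classes were 1.41, 0.97 and 0.51. The 4 genes that were lowest in tumor 2 in uncorrected CPM, Canx, Atf6, Ern1 and Eif2ak3, were all among the 12 longest. Their exon lengths were 4693, 9231, 8173 and 6026 bases. After the correction their deviations in tumor 2 were -0.33, 0.51, -0.67 and -1.81, so that Atf6 was no longer below the other tumors' median. In Smc3/Bcl6 tumor 1 the same correlation was 0.282 for the 37 genes and 0.120 for all tested genes. The part of transcript length in the levels of tumor 2 was not tested beyond this correction.

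**Figure D4:**
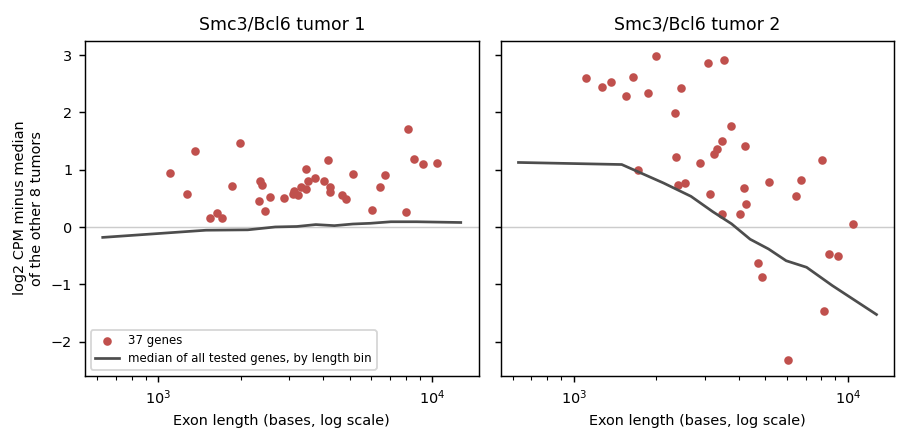
Deviation of each of the 37 genes (points, log2 CPM minus the median of the other 8 tumors) against exon length in bases (log scale) in Smc3/Bcl6 tumors 1 and 2, with a line for the median of all tested genes in bins of length. In tumor 1 all 37 points lie above 0 at every length, and in tumor 2 both points and line fall with length, with most points above the line.

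The promoter elements were set beside these levels. In Smc3/Bcl6 tumor 1 the 11 genes with an ERSE or ERSE-II deviated by a median of 0.69 from the other tumors and the 20 genes with a promoter but without these elements by 0.62. In tumor 2 the medians were 1.12 and 1.08. They were -0.51 and -0.39 in tumor 3, and -0.61 and -0.25 in tumor 4. The median exon lengths of these gene sets were 3745 and 3117.5 bases. The part of the elements in these levels was not tested. Within the 11, uncorrected values in tumor 2 ran from -0.87 for Syvn1 (4859 exon bases) to 2.98 for Derl3 (1993 exon bases). Corrected for exon length and GC content, these 2 genes deviated by -0.58 and 2.24.

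The load of immunoglobulin mRNA, taken as the sum of Ighm (the μ heavy chain) and Igkc (the κ light chain), was compared because antibody is the main cargo of this machinery in B cells. It was 31554, 12186 and 12882 CPM in the Bcl6 tumors and 30869, 87873, 10610, 42323, 11850 and 22323 CPM in the Smc3/Bcl6 tumors. Smc3/Bcl6 tumors 2 and 4 were the highest and tumor 3 the lowest, and the groups overlapped. The mean difference was 0.62 on the log2 scale (exact two-sided permutation test over 84 splits, p = 0.512), and 0.27 without tumor 2 (exact p = 0.75). Xbp1, the transcription factor that drives this machinery in plasma cells, was at 605, 333 and 367 CPM in Bcl6 and at 649.7, 1262, 340.1, 428, 650.0 and 579 CPM in Smc3/Bcl6 tumors. Its mean difference was 0.51 (exact two-sided permutation p = 0.25), and 0.29 without tumor 2 (exact p = 0.357).

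Across the 9 tumors, 33 of 37 genes had a positive correlation of log2 CPM with the immunoglobulin load (median Pearson r 0.59, median Spearman rho 0.43), and 33 of 37 with Xbp1 (median r 0.74, median rho 0.47). Canx, Atf6, Ern1 and Eif2ak3 had negative r with both. In all, 74 relations were computed and adjusted together by the Benjamini-Hochberg method over exact permutation p-values, and 1 gene for each measure passed 0.05 by both coefficients. For the immunoglobulin load it was Dnajb9 (r = 0.90, adjusted exact p = 0.0279; rho = 0.93, adjusted exact p = 0.0277; unadjusted exact p = 0.0018 and 0.00075). Leaving out the 2 tumors farthest from the median load, Smc3/Bcl6 tumors 2 and 3, its r was 0.87. For Xbp1 it was Sec61g (r = 0.90, adjusted exact p = 0.00653; rho = 0.93, adjusted exact p = 0.0277; unadjusted exact p = 8.82e-05 and 0.00075), with r = 0.96 without the 2 farthest tumors, Bcl6 tumor 2 and Smc3/Bcl6 tumor 2. Sec61g had 38 to 75 counts in 8 tumors and 223 in Smc3/Bcl6 tumor 2. It has near-identical copies in 4 other genes, so its level and this relation are uncertain. Herpud1 and Atf4 for the load, and Edem2 and Ssr4 for Xbp1, passed by Pearson's r only. When each of the 9 tumors was left out in turn, 0 genes passed for the load in 8 of 9 fits, all but that without Bcl6 tumor 1, and 0 passed for Xbp1 in 8 of 9 fits, all but that without Bcl6 tumor 2. With the correction for exon length and GC content, 0 genes passed for the load.

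**Figure D5:**
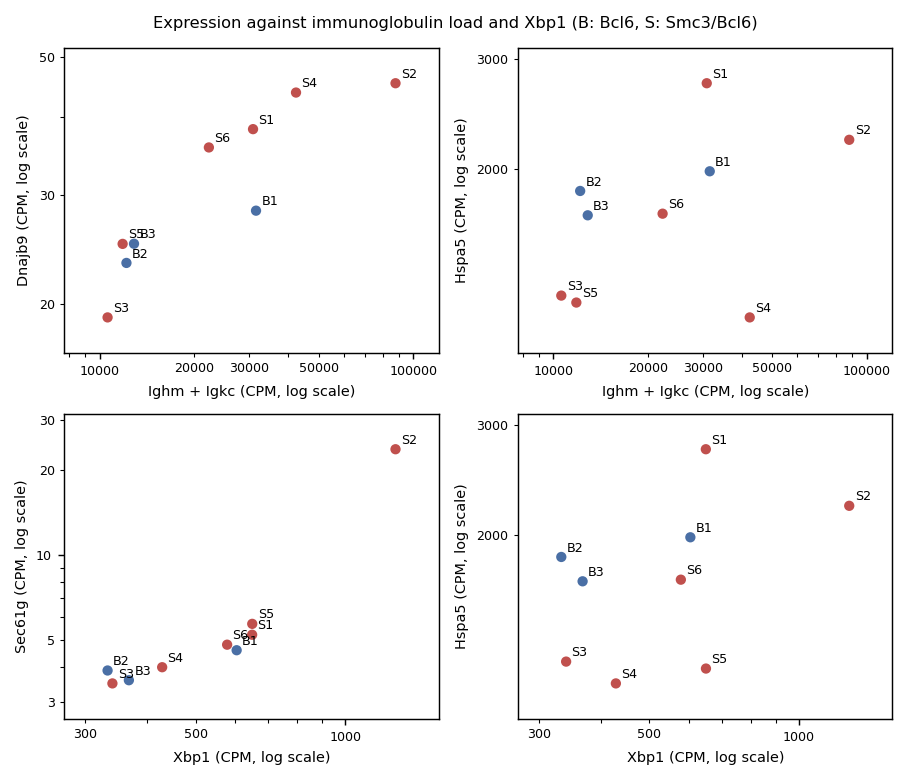
CPM of Dnajb9 and Hspa5 against the summed CPM of Ighm and Igkc, and of Sec61g and Hspa5 against Xbp1, each point 1 tumor (B, Bcl6, blue; S, Smc3/Bcl6, red), all axes on a log scale. Dnajb9 rises with the immunoglobulin load over all tumors (r = 0.90), while Hspa5 is low in Smc3/Bcl6 tumor 4, whose load is the second highest. The level of Sec61g is uncertain, since it has near-identical copies elsewhere in the genome.

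Most of the other relations rested on few tumors. Without the 2 farthest tumors the median r fell to 0.17 for the immunoglobulin load and to 0.51 for Xbp1. The main chaperone Hspa5 had r = 0.43 with the load (rho = 0.40; exact permutation p = 0.246 and 0.291, adjusted 0.308 and 0.479), and 0.14 without the 2 farthest tumors. Smc3/Bcl6 tumor 4 lay apart for many genes, with 42323 CPM of immunoglobulin but the lowest level of 14 of the 37 genes, among them Hspa5, Sdf2l1 and Pdia3. Without tumor 4 the median r with the load was 0.84, 23 genes passed the adjusted threshold by Pearson's r and 0 by Spearman's rho. Tumor 4 was singled out after its values were seen, so the higher r without it decides nothing. Without Smc3/Bcl6 tumor 2, 37 of 37 genes had a positive r with Xbp1, the median r was 0.50 and 0 genes passed. Within the 6 Smc3/Bcl6 tumors the median r was 0.66 for the load and 0.81 for Xbp1, and 0 genes passed for either. With 6 tumors the exact p cannot fall low enough for any gene to pass alone, so this count decides little. The 3 Bcl6 tumors are too few for a correlation. Tumor 4 also had the highest sum of erythroid genes, 12511 CPM against 43.2 to 4659 CPM in the other 8 tumors, and the part of those cells in its levels was not tested.

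The pathway holds other genes of the ER and the secretory route, and 68 of them were listed, of which 67 passed the filter and 1 (Srp54a) had 0 counts in every tumor. In the comparison of genotypes 1 of 67 was called higher and 0 lower, against the background of 1.28% and 0.868%, and 55 of 67 log2 fold changes were positive with a median of 0.18. The gene called was Fkbp14, a prolyl isomerase for collagens, which is near the detection limit here. Fkbp14 had 0, 0 and 2 counts in the Bcl6 tumors and 34, 6, 6, 21, 18 and 22 counts in the Smc3/Bcl6 tumors. Scaled to library size the Smc3/Bcl6 group was 25.2 times higher, with an exact 95% interval of 6.82 to 211 that covers counting error only. Its unadjusted p was 0.00417 and its adjusted p 1 in edgeR. Paired by replicate number (replicate block), Fkbp14 was filtered out, 0 of 66 genes were called higher and 1 lower, against 0.337% and 1.9% of all genes. That gene, named after its values were seen, was Ppp1r15a (GADD34), which reverses the PERK block of translation and was at 237, 101 and 85.5 CPM in Bcl6 and 224, 38.4, 43.6, 807, 46.3 and 72.8 CPM in Smc3/Bcl6 tumors.

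Per kilobase, the most abundant of these genes were Txndc5, a disulfide isomerase, at a mean of 409 CPM per kilobase, Tram1, which helps nascent chains enter the Sec61 channel, at 290.4, and P4hb (PDI) at 213. All 3 were highest in Smc3/Bcl6 tumor 1, where Txndc5 was at 3565 CPM, Tram1 at 1675 CPM and P4hb at 1080 CPM. Their log2 fold changes between genotypes were 0.052 ± 0.51, 0.18 ± 0.39 and 0.20 ± 0.38, each smaller than its standard error. Over the 67 genes the median deviation was 0.54 in Smc3/Bcl6 tumor 1 and 0.34 in tumor 2, against 0.70 and 1.12 over the 37 genes.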

How the data were processed

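RNA-seq was done on 9 lymphomas, 3 Bcl6 and 6 Smc3/Bcl6, with 1 library per tumor. The authors ran the nf-core RNA-seq pipeline, mapped the reads with STAR (mm10, Gencode annotation), counted reads per gene with featureCounts, and deposited the raw counts (10156728 to 17774577 per tumor). Their processing notes name R 4.0.2 and DESeq2 1.28.1. The table held 0 columns without a sample. Groups and replicate numbers came from the labels, which do not say whether tumors came from separate cultures or litters. P-values then measure the spread between these samples.

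From the counts, TMM-scaled log2 CPM (prior count 2) and genotype tests were computed with edgeR 4.0.16 in R 4.3.3 (quasi-likelihood test on the 14057 genes passing its filter, thresholds of the study, Benjamini-Hochberg adjustment). DESeq2 1.42.0 and limma 3.58.1 were alternatives, beside other scalings, filters, covariates, offsets and leaving out each tumor. Standard errors are those of the log2 fold change, taken from the quasi-likelihood F. Relations used exact permutation tests (Python 3.11.15, NumPy 2.4.6). Exon lengths, GC content and positions came from GENCODE M21 (GRCm38), which held 97.9% of the gene identifiers, and shared sequence was searched with BLAST+ 2.17.0 (at least 95% identity over 200 bases). The scripts were tested on simulated data for this comparison, with 200 changed genes at each log2 change of 1, 2 and 3. The thresholds of the study recovered 63%, 95% and 99.5% of the changed genes. They also called 8.73%, 9.19% and 9.45% of the unchanged genes. After adjustment, 0%, 25% and 72% of the changed genes were recovered.

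The deviations of tumors with the same replicate number had correlations over all tested genes of 0.443, 0.113 and 0.155 for numbers 1, 2 and 3. Tumors with unequal numbers were not compared, so these values do not show that equal numbers belong together. The tumors of number 1 are also those labelled mesenteric lymph node. A fit with the number as a block was run on tumors 1 to 3, and the pairing comes only from the labels' numbers. The genes and lists were chosen with earlier results of these data known. Named are all 37 genes, Ighm, Igkc and Xbp1, the other pathway genes that passed the thresholds with all tumors or without Smc3/Bcl6 tumor 2, and the 3 most abundant per kilobase. Marker lists for plasma cells, T cells, macrophages, stroma and endothelium, neutrophils and erythroid cells were summed per tumor. B cell genes were read singly, and the sum of their list is not reported here.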

Additional observations from a re-analysis of the deposited data

Results flagged for a closer look

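Log2 CPM of each of the 37 genes, the immunoglobulin load, log2 CPM of Xbp1 and the log2 sums of 7 cell type lists were examined in the 6 Smc3/Bcl6 tumors for a tumor whose gap to its nearest neighbour, divided by the range of the 6 tumors, was above Dixon's critical value. Of these 46 measures 8 passed, while chance gives about 2.3. The 3 Bcl6 tumors are too few for this rule. Smc3/Bcl6 tumor 2 stood above the others in Spcs1 (gap ratio 0.814), Sec61g (0.749), Ssr4 (0.739), Derl2 (0.732), Fkbp2 (0.694) and Herpud1 (0.633), and below them in Eif2ak3 (0.639). Smc3/Bcl6 tumor 1 stood above the others in Ssr1 (0.657), the gene with the longest exons of the list. These measures share their libraries and are not independent.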

How the results depend on the processing

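The table was refitted under 18 alternatives. No gene of the 37 passed an adjusted p of 0.05 under any of them, and 0 were called lower under any. With limma voom with quality weights 2 of 37 genes were called higher (Pdia4 and Eif2ak3, 5.41%). Limma called 4.57% of all tested genes higher and 7.13% lower. The number called higher was 0 to 1 when each tumor was left out. It was Eif2ak3 without Smc3/Bcl6 tumor 2, against 2.43% of all tested genes. It was Herpud1 without Smc3/Bcl6 tumor 3, for which the share over all genes is not reported here. In DESeq2, which left Sec61g, Spcs1, Fkbp2 and Ssr4 without a p, 0 were called. It called 2.43% of all tested genes higher and 0.719% lower. The number with a log2 fold change above 0 was 23 to 34 when each tumor was left out. The median log2 fold change of the 37 genes was 0.077 with limma, 0.47 with the replicate block and the length and GC offset together, and 0.081 to 0.37 when each tumor was left out, lowest without Smc3/Bcl6 tumor 2. Among the other pathway genes 2 were called higher with DESeq2 (2.99%, against 2.43% of all tested genes) and 4 with limma (5.97%, against 4.57%). The number called higher was 0 with the replicate block with or without the offset, and 1 to 2 when each tumor was left out. The number called lower was 1 with limma (1.49%, against 7.13% of all tested genes). It was also 1 with both replicate blocks (1.52% against 1.9% without the offset), and 0 to 1 when each tumor was left out.

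Of the 666 refitted log2 fold changes of the 37 genes, 54 changed sign, in 24 genes, none of which was called with all 9 tumors; the cause was not tested. With limma these were -0.15 for Sec61b, -0.12 for Calr, -0.28 for Manf, -0.14 for Derl3, 0.011 for Hsp90b1, -0.075 for Ddit3, 0.024 for Canx, -0.24 for Pdia6, 0.38 for Sel1l, -0.14 for Spcs1, -0.28 for Sdf2l1, -0.15 for Dnajb11 and -0.13 for Fkbp2. With the tissue label as covariate they were -0.00013 for Ern1 and 0.11 for Sel1l. With the replicate block they were -0.11 for Atf6, 0.072 for Hspa5, 0.17 for Pdia3, -0.45 for Eif2ak3, 0.044 for Hsp90b1, -0.28 for Ern1 and -0.15 for Syvn1, and with the offset added to the block 0.17 for Hspa5, 0.13 for Pdia3, -0.32 for Eif2ak3, 0.15 for Hsp90b1, 0.24 for Sel1l and -0.088 for Syvn1. With the length and GC offset alone it was 0.075 for Sel1l. Leaving out each tumor in turn changed the sign of Ern1 (-0.33 to 0.83), Sel1l (-0.34 to 0.23), Edem1 (-0.016 to 0.44), Spcs3 (-0.035 to 0.40), Ssr1 (-0.20 to 0.29), Atf6 (-0.11 to 0.22), Ssr2 (-0.11 to 0.70), Sec61b (-0.15 to 0.82), Spcs2 (-0.0011 to 0.46), Calr (-0.16 to 0.20), Manf (-0.25 to 1.04), Pdia6 (-0.24 to 0.39), Spcs1 (-0.13 to 0.77), Sdf2l1 (-0.24 to 0.86), Dnajb11 (-0.20 to 0.20), Fkbp2 (-0.18 to 0.91) and Pdia3 (-0.22 to 0.062), where the range over the 9 fits is given.

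The genotype difference in immunoglobulin load and in Xbp1 kept its direction under every alternative run, with exact p of 0.286 to 1 and 0.161 to 0.75, the highest in both from the replicate block (differences of 0.85 and 0.64, 8 sign changes). With 8 sign changes the two-sided exact p cannot fall below 0.05, so the p of the block decides nothing. The number of genes related to the immunoglobulin load was 0 with the length and GC correction, 0 within the 6 Smc3/Bcl6 tumors and 0 to 1 when each tumor was left out (0 in 8 of 9 fits), and for Xbp1 it was 0 within the 6 Smc3/Bcl6 tumors and 0 to 1 when each tumor was left out (0 in 8 of 9 fits). Within the 6 tumors no gene could pass alone. The replicate block changed no other call in the comparison of genotypes, and none was run for the relations.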

Other observations

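The marker lists not set beside a result above were summed in the same way. The 6 genes of stroma and endothelium, of which Col3a1 was at 0 in at least 1 tumor, summed to 95.6 to 125 CPM in the Bcl6 tumors and to 19.0 to 329.6 CPM in the Smc3/Bcl6 tumors. The 6 neutrophil genes, of which Elane was at 0 in at least 1 tumor, summed to 17.8 to 1731 CPM in the Bcl6 tumors and to 8.13 to 705 CPM in the Smc3/Bcl6 tumors. Smc3/Bcl6 tumor 1, in which all 37 ER genes were above the median of the other 8 tumors, was at 172 CPM for stroma and endothelium and at 191 CPM for neutrophils, within the range of the other 8 tumors for both. Smc3/Bcl6 tumor 2 was at 19.0 CPM for stroma and endothelium, the lowest of the 9 tumors, at 120.2 CPM for neutrophils, and at 4659 CPM for the erythroid genes, the second highest of the 9. These sums were not corrected for exon length, with which the counts of tumor 2 fell, so its ranks are uncertain.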
